A study of Mus musculus with 6 samples.

Results

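The genes described here encode the machinery with which synaptic vesicles dock, become ready for release, and fuse at the presynaptic active zone. They were chosen by gene symbol alone: numbered syntaxins, syntaxin binding proteins, SNAP and VAMP proteins, complexins, the Munc13 (*Unc13*), RIM (*Rims*), and RIM-binding (*Rimbp*) proteins, synapsins, SV2 proteins, and *Bsn*, *Pclo*, *Erc1*, *Erc2*, *Doc2a*, *Doc2b*, *Rph3a*, and *Nsf*. Of the 14477 genes with RNA-Seq values, 58 met this rule, and 1 further matching symbol was left out. A symbol does not fix a role: *Snap91* encodes a clathrin adaptor of vesicle recycling, and several syntaxins and VAMPs work at the Golgi, the endosome, and the endoplasmic reticulum.

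Hippocampal RNA of 3 Phf21bΔ4/Δ4 mice, numbered 2, 3, and 6 by the labels, was compared with that of 3 Phf21b+/+ mice, numbered 5, 7, and 8, all taken at baseline with no treatment. Phf21b encodes a plant homeodomain finger protein that reads histone marks. The Δ4 allele is a CRISPR/Cas9 deletion carried in every cell of the body, and the study treats the line as a knockdown and not as a null. Its animals were adult male and female littermates on the C57BL/6J background, but the labels give neither the sex nor the age of any one mouse, and each label stands for 1 mouse. The comparison asks how the hippocampal transcriptome differs between the genotypes.

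Fusion is driven by SNARE proteins: syntaxin and SNAP-25 on the plasma membrane zip together with VAMP on the vesicle. Munc18 and Munc13 proteins guide syntaxin into the complex, complexins clamp and aid it, and NSF takes it apart after fusion. Bassoon, piccolo, RIM, RIM-binding, and ELKS proteins form the scaffold that holds vesicles beside calcium channels, while synapsins and SV2 proteins belong to the vesicle pool. Hippocampal pyramidal neurons, granule cells, and interneurons all use this set, with different paralogs in different cells.

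Upstream sequence is shown for 4 members, picked with their values known, to set *Syn1*, *Stx1a*, and *Bsn*, with positive changes, beside *Stxbp3*, with a negative one. The bases come from RefSeq (GRCm38.p6), run 5′ to 3′ on the strand of the gene, and cover the 250 bases before the RefSeq start without any base inside the GENCODE gene. Capitals mark 3 motifs, searched on both strands: the cAMP response element TGACGTCA, the arm TTCAGCACC of the repressor element RE1, and the GC box GGGCGG, all in capitals where either strand holds them.
Syn1 (chrX:20921005-20921168, minus strand): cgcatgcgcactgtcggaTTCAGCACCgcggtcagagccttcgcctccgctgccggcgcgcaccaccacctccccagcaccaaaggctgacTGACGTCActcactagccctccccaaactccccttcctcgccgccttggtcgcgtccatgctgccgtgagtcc
Stx1a (chr5:135023232-135023481, plus strand): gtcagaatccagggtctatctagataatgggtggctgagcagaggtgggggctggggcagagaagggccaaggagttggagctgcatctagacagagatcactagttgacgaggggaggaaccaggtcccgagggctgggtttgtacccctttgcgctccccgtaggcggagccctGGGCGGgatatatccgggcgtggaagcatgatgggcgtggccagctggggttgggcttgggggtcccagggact
Bsn (chr9:108190385-108190633, minus strand): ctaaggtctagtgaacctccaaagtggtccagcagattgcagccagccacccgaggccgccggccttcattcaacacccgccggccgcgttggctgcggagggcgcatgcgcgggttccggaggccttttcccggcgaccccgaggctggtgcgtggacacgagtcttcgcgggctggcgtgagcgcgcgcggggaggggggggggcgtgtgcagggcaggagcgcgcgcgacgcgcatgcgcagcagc
Stxbp3 (chr3:108840527-108840752, minus strand): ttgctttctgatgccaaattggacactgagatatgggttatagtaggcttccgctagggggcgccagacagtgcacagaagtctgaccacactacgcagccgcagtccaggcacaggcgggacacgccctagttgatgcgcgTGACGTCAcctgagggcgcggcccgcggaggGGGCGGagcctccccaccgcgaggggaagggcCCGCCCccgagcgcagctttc

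In *Syn1* the RE1 arm began 232 bases and the cAMP response element 159 bases before the RefSeq start, and in *Stxbp3* the element began 108 bases before it. A GC box began 74 bases before the start of *Stx1a*. In *Stxbp3* GC boxes began 77 bases before the start and, on the other strand, 45 bases before it. The *Bsn* window held none of the 3 motifs. The response element stood upstream of both *Syn1* and *Stxbp3*, whose changes differ in sign. Both were picked with their values known and neither passed the thresholds given below, so nothing about the element follows from this. Of the 58 members, 45 had an upstream window in the RefSeq table, with 56 windows in all. The cAMP response element was in 2 of these windows (3.57%), against 508 of all 32851 windows (1.55%). The RE1 arm was in 1 member window, that of *Syn1*, against 0.301% of all windows. The GC box was in 30 member windows (53.6%), against 32.7% of all. These are matches of letters in a window, not binding sites, and no test was made of them.

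The libraries held 20495605 to 24881257 reads on the listed genes, and the log2 CPM values (read counts scaled to the size of the library) correlated between mice at 0.91 to 0.984. Library Phf21bΔ4/Δ4 6 was closest to a mouse of the other genotype. Its correlation was 0.98 with Phf21b+/+ 5, against 0.975 and 0.965 with Phf21bΔ4/Δ4 2 and 3. Other libraries were uneven too: Phf21b+/+ 5 correlated at 0.984 with Phf21b+/+ 8 but at 0.959 with Phf21b+/+ 7. The lowest correlation, 0.91, was that of Phf21bΔ4/Δ4 3 with Phf21b+/+ 7. *Phf21b* itself was at 2.15, 3.57, and 3.87 CPM in Phf21bΔ4/Δ4 mice 2, 3, and 6 and at 6.50, 5.23, and 6.47 CPM in Phf21b+/+ mice 5, 7, and 8 (log2 change -0.96, limma FDR 0.14). All 6 hippocampal markers were listed, with summed levels of 820 to 1538 CPM in Phf21bΔ4/Δ4 mice and 899 to 1172 CPM in Phf21b+/+ mice. Markers of a neighboring structure differed widely: 12 of 12 medial habenula markers passed both thresholds as lower, at summed levels of 20.96 to 30.97 CPM against 245 to 352 CPM. Most of these markers are among the genes that the study itself reported as differing in these mice, so their count is no independent result. A gene was called at a limma FDR under 0.1 and a fold change above 1.3, and 176 genes (1.22% of all) were called, 80 higher (0.553%) and 96 lower (0.663%) in Phf21bΔ4/Δ4 mice.

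None of the 58 members was called by limma on all 6 mice. At an unadjusted p under 0.05 stood 17 members (29.3%), against 23.6% of all genes. Of these, 12 had higher levels in Phf21bΔ4/Δ4 mice (background 11.6%) and 5 had lower levels (background 12%). The limma-voom test on reads worked out from the CPM values called 0 members as well, out of 131 genes (0.905% of all), and gave 15 members an unadjusted p under 0.05 (background 22.7%). The lowest FDR of any member was 0.133, for *Sv2b*. All 3 mice of a genotype lay above all 3 of the other for 12 members that were higher in Phf21bΔ4/Δ4 mice (15% of all genes) and for 5 that were lower (16%), with 31% of all genes in either direction. A log2 change above 0 was found for 38 members, whereas 47.6% of all genes had one.

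The members differed in direction and size of change. A core of 18 genes for fast transmitter release was set apart, among them *Stx1a*, *Snap25*, *Vamp1*, *Vamp2*, *Cplx1*, *Cplx2*, *Unc13a*, *Rims1*, *Bsn*, *Pclo*, *Syn1*, *Syn2*, *Sv2a*, *Sv2b*, *Sv2c*, and *Nsf*. Of the 18 genes, 17 had a log2 change above 0 and the exception was *Sv2c*. The median log2 change of the core was 0.55, against 0.01 for the other 40 members and -0.02 for all 14477 genes. The core was chosen with earlier results of these data known. The other members also hold active zone genes, with changes from -0.59 for *Rims3* to 0.89 for *Rims4*. The contrast therefore depends on how the core was drawn. Summed over the core, the levels were 11251, 10946, and 8837 CPM in Phf21bΔ4/Δ4 mice 2, 3, and 6 and 8459, 6428, and 8031 CPM in Phf21b+/+ mice 5, 7, and 8. The sums of the genotypes did not overlap, but Phf21bΔ4/Δ4 6 lay nearer to Phf21b+/+ 5 than to either mouse of its own genotype, and Phf21b+/+ 7 lay lowest. Sums over all 14477 genes did not overlap either, at 1016200 to 1053050 CPM in Phf21bΔ4/Δ4 mice and 946834 to 972563 CPM in Phf21b+/+ mice. The lack of overlap is therefore not particular to the core, and the part of library scaling in it was not tested. With the libraries Phf21bΔ4/Δ4 3 and Phf21b+/+ 7 both left out, the median of the core was 0.28.

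**Figure D1:**
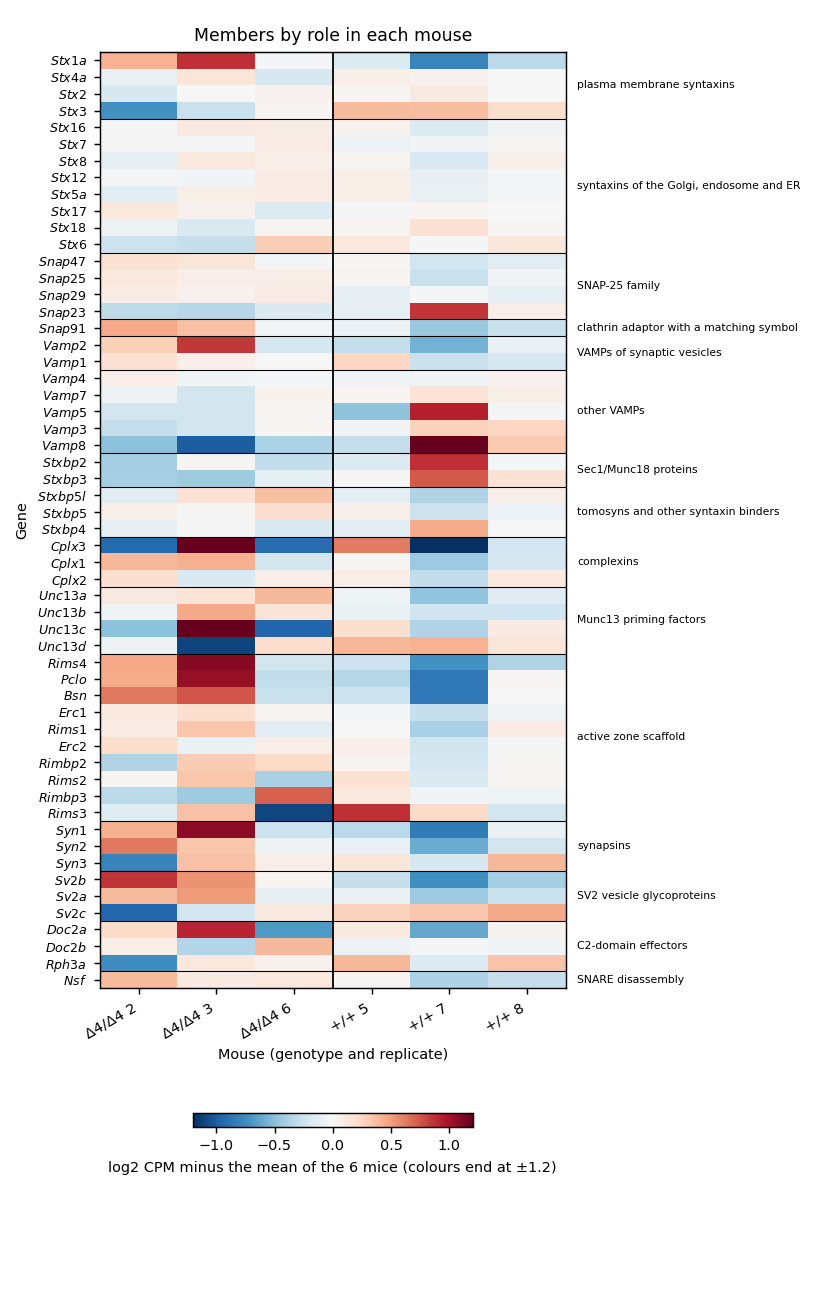
Heat map of 56 of the 58 members (rows, grouped by role) in the 6 mice (columns), colored by log2 CPM minus the mean of the 6 mice, with the colors ending at ±1.2. *Sv2b*, *Stx1a*, *Syn1*, *Bsn*, and *Pclo* are red in Phf21bΔ4/Δ4 mice 2 and 3 and blue in Phf21b+/+ 7, while most syntaxins of the Golgi, endosome, and ER stay near white in every mouse.

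Values are given below in the order Phf21bΔ4/Δ4 2, 3, and 6 and then Phf21b+/+ 5, 7, and 8, in CPM, and every log2 change is Phf21bΔ4/Δ4 minus Phf21b+/+. Positions are those of GENCODE M21 on GRCm38. Because 3 mice against 3 cannot reach a two-sided exact permutation p below 0.1 for any gene, FDR values from the limma fit of all genes are printed. Bulk tissue cannot tell fewer cells of a type from less RNA per cell.

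Among plasma membrane syntaxins, *Stx1a* lay above and *Stx3* lay below the Phf21b+/+ levels. *Stx1a* (chromosome 5, 135023482 to 135051100), which anchors the SNARE complex at the terminal, was at 101, 139, and 75.0 CPM against 67.3, 43.7, and 60.2 CPM, a log2 change of 0.86 ± 0.25 (SE; FDR 0.151). Its genotypes did not overlap, and the highest value was that of Phf21bΔ4/Δ4 3 and the lowest that of Phf21b+/+ 7. *Stx3* (chromosome 19, 11775118 to 11819403), a syntaxin of apical and dendritic membranes and of ribbon synapses, was at 10.5, 14.4, and 17.8 CPM against 22.6, 22.5, and 20.1 CPM (-0.64 ± 0.19, FDR 0.151). Here the genotypes did not overlap either, the Phf21b+/+ mice lay close together, and Phf21bΔ4/Δ4 6 was the nearest to them. The broadly used *Stx2* and *Stx4a* had log2 changes of -0.09 and -0.08, within the spread of the mice.

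Syntaxins of the Golgi, endosome, and ER served as members outside the synapse, and their levels differed little. The log2 changes of these 8 genes ran from -0.16 to 0.11 with a median of 0.03, and none had genotypes that did not overlap. The highest was that of *Stx16*, a trans-Golgi syntaxin, at 70.2, 77.1, and 75.8 CPM against 73.5, 63.6, and 69.3 CPM. The lowest was that of *Stx6*, which acts between endosomes and the trans-Golgi, at 96.4, 95.6, and 141 CPM against 126, 114, and 127 CPM. *Stx6* in Phf21bΔ4/Δ4 6 was above all other mice, while Phf21bΔ4/Δ4 2 and 3 were below them.

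In the SNAP-25 family the RNA levels of the neuronal gene barely differed. *Snap25* (chromosome 2, 136713453 to 136782428), the plasma membrane SNARE of neurons, was at 2168, 2096, and 2098 CPM against 2039, 1653, and 1934 CPM, with a log2 change of 0.18 ± 0.13 (FDR 0.4). Its genotypes did not overlap, but Phf21b+/+ 5 lay just under the lowest Phf21bΔ4/Δ4 mouse, and Phf21b+/+ 7 was far from the other 5. *Snap47*, a paralog lacking a membrane anchor, was at 406, 395.5, and 354 CPM against 362, 306, and 326 CPM (0.22 ± 0.10, FDR 0.234), and Phf21bΔ4/Δ4 6 lay below Phf21b+/+ 5. Of its exon bases, 11.6% were shared with *Jmjd4*. *Snap29*, of intracellular fusion and autophagy, was at 34.0, 33.2, and 34.3 CPM against 29.8, 31.4, and 29.5 CPM (0.16 ± 0.07, FDR 0.227), and its genotypes did not overlap. *Snap23*, another paralog, was at 9.57, 9.34, and 10.5 CPM against 10.96, 21.4, and 12.5 CPM (-0.55 ± 0.25, FDR 0.231), and its value in Phf21b+/+ 7 stood far above all others.

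The vesicle SNARE *Vamp2* (chromosome 11, 69088490 to 69092384), synaptobrevin of the forebrain, was at 218, 323, and 155 CPM against 147, 121, and 169 CPM (0.62 ± 0.27, FDR 0.219). Here the genotypes overlapped, because Phf21bΔ4/Δ4 6 lay below Phf21b+/+ 8. *Vamp1*, its paralog of the hindbrain and of fast-spiking cells, was at 96.2, 88.5, and 84.5 CPM against 101, 70.7, and 73.4 CPM (0.15 ± 0.15). Phf21b+/+ 5 was the highest of the 6 mice for it.

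Of the 5 VAMPs used outside fast release, 4 had negative log2 changes, and the median was -0.28. *Vamp8* (chromosome 6, 72385223 to 72390703), a SNARE of epithelial secretion and autophagosome fusion, was at 6.58, 4.67, and 7.13 CPM against 7.59, 33.3, and 11.5 CPM (-1.24 ± 0.52, FDR 0.21). It gave the largest negative change of any member, and although the genotypes did not overlap, Phf21bΔ4/Δ4 6 and Phf21b+/+ 5 were almost the same. *Vamp3*, cellubrevin, was at 28.5, 29.6, and 35.0 CPM against 33.6, 42.0, and 41.3 CPM (-0.33 ± 0.13, FDR 0.19). *Vamp4*, of the trans-Golgi, ran from 81.0 to 88.2 CPM over all 6 mice with no order by genotype.

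Sec1/Munc18 proteins clasp syntaxin. *Stxbp3* (chromosome 3, 108793176 to 108840526), the Munc18c paralog of non-neuronal trafficking, was at 19.3, 18.9, and 23.7 CPM against 25.7, 42.4, and 28.8 CPM (-0.62 ± 0.20, FDR 0.16). These did not overlap, and Phf21b+/+ 7 was again the highest. *Stxbp2*, the Munc18-2 of epithelia and blood cells, was at 7.34, 9.81, and 7.92 CPM against 8.68, 17.9, and 9.66 CPM (-0.46 ± 0.28).

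The high values of *Vamp8*, *Stxbp3*, and *Snap23* in Phf21b+/+ 7 came from a library in which choroid plexus markers were also high. The 6 markers of that secretory epithelium summed to 15547 CPM in Phf21b+/+ 7 and 966 CPM in Phf21b+/+ 8, against 22.7 to 80.0 CPM in the other 4 mice. With Phf21b+/+ 7 left out, the log2 changes of these 3 genes were -0.63, -0.41, and -0.26. The part of choroid plexus RNA in these values was not tested.

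Tomosyns keep syntaxin out of the SNARE complex. *Stxbp5l*, a tomosyn of brain, was at 169, 208, and 237 CPM against 170, 143, and 193 CPM (0.27 ± 0.16), and *Stxbp5*, the other tomosyn, had a log2 change of 0.18. *Stxbp4*, a syntaxin 4 binder, was at 22.6, 23.9, and 21.4 CPM against 22.3, 33.2, and 24.3 CPM (-0.21 ± 0.16). Genotypes overlapped for all 3.

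Complexins 1 and 2 are the clamps of central synapses. *Cplx1*, more frequent in interneurons, was at 364, 369, and 237 CPM against 283, 203, and 239 CPM (0.40 ± 0.20, FDR 0.267), and Phf21bΔ4/Δ4 6 lay below both Phf21b+/+ 5 and 8. *Cplx2*, more frequent in principal cells, was at 1110, 857, and 1023 CPM against 1022, 792, and 1053 CPM (0.06 ± 0.16), with no order by genotype. *Cplx3*, a complexin of retinal ribbon synapses and cortical subplate cells, was at 18.9 CPM in Phf21bΔ4/Δ4 3 and at 1.27 to 4.56 CPM in the other 5 mice, so that its log2 change of 0.56 ± 1.02 rested on 1 library. Without that library the change was -0.64.

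Munc13 proteins open syntaxin and make vesicles ready for fusion. *Unc13a* (chromosome 8, 71624417 to 71671757), the Munc13-1 of most excitatory terminals, was at 381, 396, and 464 CPM against 342, 254, and 320 CPM (0.44 ± 0.14, FDR 0.155). It was the 1 core gene for which Phf21bΔ4/Δ4 6 was the highest of the 6 mice. *Unc13b*, Munc13-2, was at 66.3, 93.5, and 76.0 CPM against 64.4, 57.9, and 58.0 CPM (0.37 ± 0.13, FDR 0.173), and neither gene overlapped between genotypes. *Unc13c*, Munc13-3, best known from cerebellum, was at 105 CPM in Phf21bΔ4/Δ4 3 and at 19.1 to 42.1 CPM in the other mice, and its log2 change was 0.04 ± 0.60. *Unc13d*, the Munc13-4 of blood cell granules, was at 0.715 to 2.07 CPM over the 6 mice, with a log2 change of -0.64 ± 0.38.

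Within the active zone scaffold, 3 of the 10 genes had log2 changes well above those of the others. *Bsn* (chromosome 9, 108096022 to 108190384), bassoon, was at 557, 608, and 298 CPM against 300, 199, and 358 CPM (0.75 ± 0.32, FDR 0.219). *Pclo* (chromosome 5, 14514918 to 14863459), piccolo, was at 398, 603, and 239 CPM against 231, 161, and 294 CPM (0.80 ± 0.36, FDR 0.232). For both, Phf21bΔ4/Δ4 2 and 3 were above all Phf21b+/+ mice and Phf21bΔ4/Δ4 6 was among them. *Rims4* (chromosome 2, 163859751 to 163918683), a short RIM made of a C2 domain, was at 89.5, 139, and 56.0 CPM against 54.7, 39.5, and 50.7 CPM (0.89 ± 0.32, FDR 0.174), without overlap although Phf21bΔ4/Δ4 6 and Phf21b+/+ 5 almost met. *Rims3*, the other short RIM, was at 64.4, 90.9, and 33.5 CPM against 131, 83.9, and 61.3 CPM (-0.59 ± 0.41), with wide overlap. *Rims1*, the RIM that binds Munc13 and calcium channels, was at 322, 381, and 277 CPM against 301, 230, and 324 CPM (0.20 ± 0.17). The ELKS gene *Erc1* did not overlap between genotypes (0.23 ± 0.09, FDR 0.207), while the log2 changes of *Erc2*, *Rimbp2*, *Rimbp3*, and *Rims2* lay between -0.03 and 0.14.

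Synapsins tether vesicles to one another in the reserve pool. *Syn1* (chromosome X, 20860511 to 20921004), with the RE1 arm and response element printed above, was at 113, 178, and 70.6 CPM against 67.5, 47.1, and 79.7 CPM (0.83 ± 0.35, FDR 0.212). Phf21bΔ4/Δ4 6 lay between Phf21b+/+ 5 and 8, so the genotypes overlapped. *Syn2* (chromosome 6, 115134902 to 115282006) was at 1109, 899, and 688 CPM against 674, 474, and 614 CPM (0.60 ± 0.21, FDR 0.169), and its genotypes did not overlap, although Phf21bΔ4/Δ4 6 and Phf21b+/+ 5 almost met. *Syn3*, the synapsin of young neurons, was at 5.40, 12.003, and 9.92 CPM against 10.4, 8.23, and 12.4 CPM (-0.24 ± 0.31). Of its exon bases, 14.1% were shared with *Timp3*, and without a stated strand setting the reads of overlapping genes cannot be told apart.

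SV2 proteins are vesicle glycoproteins that keep vesicles ready for calcium-triggered release, and the 3 paralogs gave both a strong positive and a strong negative change. *Sv2b* (chromosome 7, 75114894 to 75309262), the paralog of excitatory forebrain neurons, was at 1424, 1146, and 800.4 CPM against 649.9, 474, and 592 CPM (0.95 ± 0.23, FDR 0.133), the largest positive log2 change of all members. *Sv2a*, found in almost all neurons, was at 503, 553, and 360 CPM against 367, 286, and 321 CPM (0.52 ± 0.18, FDR 0.168), with Phf21bΔ4/Δ4 6 just under Phf21b+/+ 5. *Sv2c* (chromosome 13, 95954594 to 96132577), enriched in basal ganglia and a few other neurons, was at 17.5, 28.8, and 36.6 CPM against 40.7, 42.2, and 46.1 CPM (-0.70 ± 0.25, FDR 0.178). For *Sv2b* and *Sv2c* the genotypes did not overlap, and in both Phf21bΔ4/Δ4 6 was the mouse of its genotype closest to Phf21b+/+ values.

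The remaining members sense calcium or recycle the machinery. *Nsf* (chromosome 11, 103821782 to 103954056), the ATPase that takes spent SNARE complexes apart, was at 1699, 1404, and 1424 CPM against 1336, 1009, and 1078 CPM (0.41 ± 0.15, FDR 0.18), without overlap. *Snap91*, the AP180 adaptor that sizes recycled vesicles, was at 498, 464, and 354 CPM against 344, 267, and 301 CPM (0.52 ± 0.16, FDR 0.152), also without overlap. Of the C2-domain calcium effectors, *Doc2a* was at 14.0, 22.5, and 7.44 CPM against 13.0, 7.81, and 12.3 CPM (0.30 ± 0.41), and 39.4% of its exon bases were shared with *Ino80e*. *Rph3a*, rabphilin, was at 89.8, 165, and 156 CPM against 199, 134, and 192 CPM (-0.38 ± 0.26), and *Doc2b* had a log2 change of 0.08. Genotypes overlapped for these 3 effectors.

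**Figure D2:**
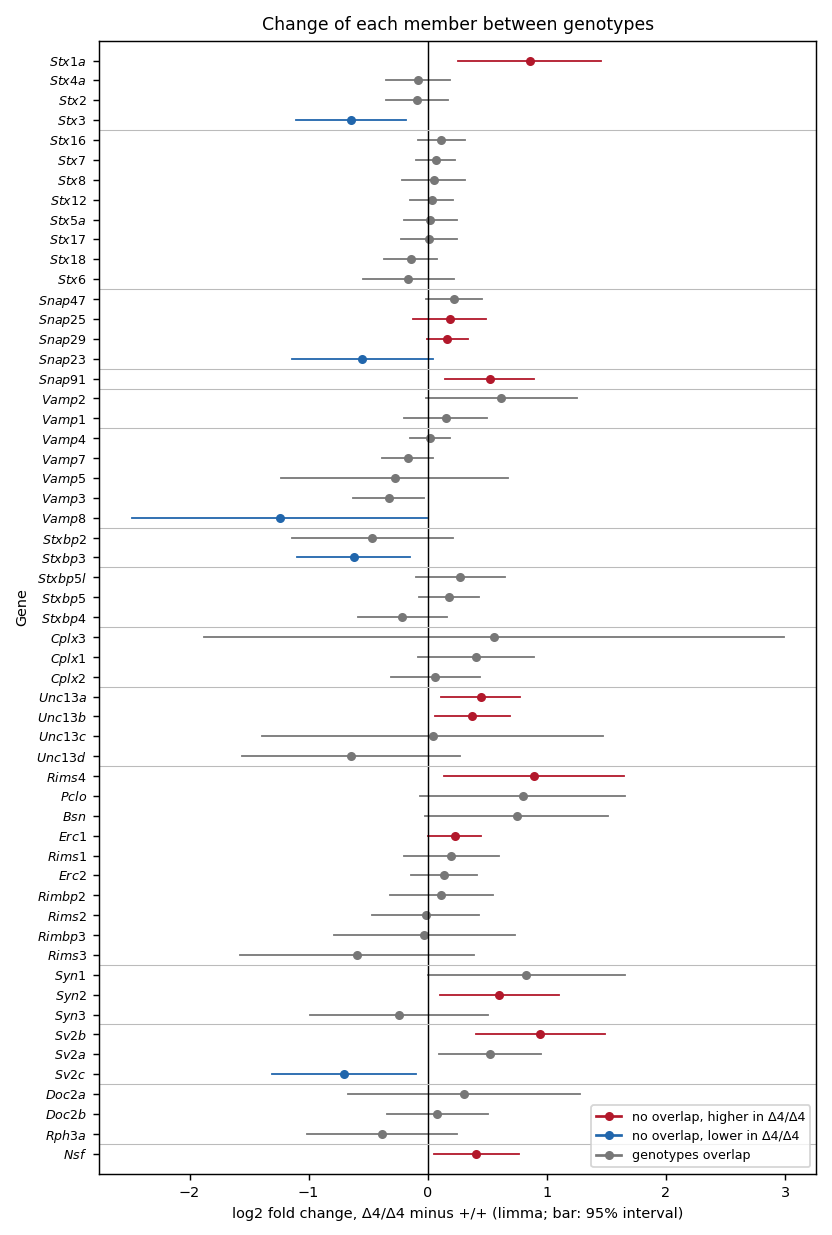
Log2 change (Phf21bΔ4/Δ4 minus Phf21b+/+, horizontal axis) of 56 of the 58 members with its 95% interval from limma, in blocks by role. *Sv2b*, *Rims4*, and *Stx1a* have the largest positive changes with no overlap between genotypes (red), *Vamp8*, *Sv2c*, and *Stx3* the largest negative ones (blue), and the secretory pathway syntaxins lie at 0.

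**Figure D3:**
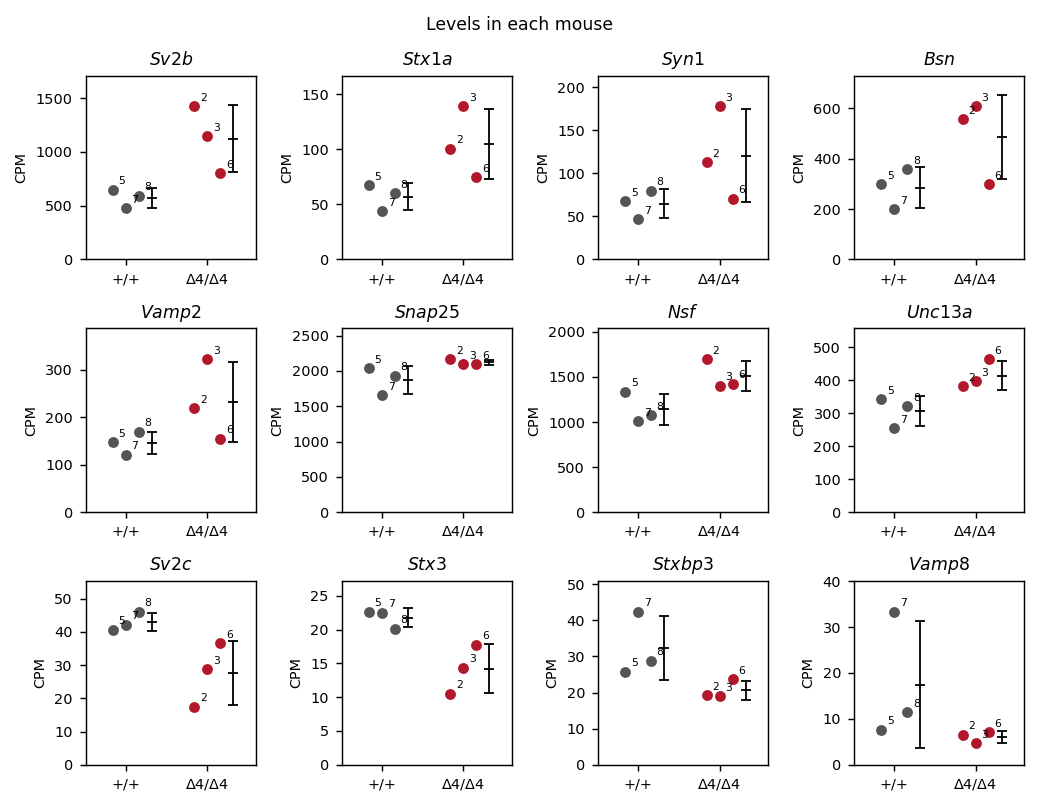
CPM (vertical axis, from 0) of 12 members in each mouse, numbered by replicate, with the mean and SD of 3 mice per genotype beside the points. Phf21bΔ4/Δ4 6 lies next to the Phf21b+/+ mice for *Syn1*, *Bsn*, and *Vamp2* but is the highest mouse for *Unc13a*, and *Vamp8* is high in Phf21b+/+ 7.

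Levels per kilobase of exon (CPM/kb) allow the members to be ranked in Phf21b+/+ hippocampus. *Snap25* was the highest at 276 ± 29.4 CPM/kb (SD, n = 3), followed by *Cplx2* at 194 ± 28.9, *Nsf* at 137 ± 20.6, *Snap47* at 125 ± 10.7, and *Cplx1* at 110 ± 18.2 CPM/kb. The ranges of the 3 mice did not meet between *Snap25* and *Cplx2* or between *Cplx2* and *Nsf*, whereas *Nsf*, *Snap47*, and *Cplx1* overlapped with their neighbors. *Syn2*, *Sv2a*, and *Sv2b* came next, at 83.6, 70.1, and 68.3 CPM/kb, each overlapping with the next. Exon length counts every annotated exon, which understates the level of a gene that uses a few of them.

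Shares within families, again in CPM/kb, do not depend on the scaling of a library. *Sv2b* made up 60.7%, 52.8%, and 54.0% of the SV2 total in Phf21bΔ4/Δ4 mice and 48.2%, 46.1%, and 48.8% in Phf21b+/+ mice. *Sv2a* made up 38.7%, 46.1%, and 43.9% against 49.2%, 50.3%, and 47.9%, and *Sv2c* 0.644%, 1.147%, and 2.13% against 2.61%, 3.55%, and 3.28%. All 3 shares were separated between genotypes (exact permutation test, two-sided p = 0.1, the smallest this design can give). They are parts of 1 total, so they are not 3 separate results. *Rims4* made up 21.2% ± 3.97 of the RIM total (SD, n = 3) against 12.8% ± 0.330, with no overlap and the same exact p of 0.1. *Sv2b* and *Rims4* had the largest positive log2 changes of all members, so their shares read the same values again and are no independent support. The genotypes overlapped for other shares: *Snap25* was 66.5% ± 1.23 of its family against 66.7% ± 1.36, and *Unc13a* was 78.4% ± 10.8 of Munc13 against 76.9% ± 0.562.

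With any 1 mouse left out, the median log2 change of the core stayed between 0.41 and 0.72, but after quantile normalization it was 0.31. Single mice stood out in the levels of the core and in the count of called members. Phf21b+/+ 7 was the lowest of the 6 mice for 17 of the 18 core genes and for 30 of the 58 members (51.7%), against 26.2% of all genes. Phf21bΔ4/Δ4 3 was the highest for 10 core genes and for 21 members (36.2%), against 23.8% of all genes. The median deviation of the core from the mean of the mice was 0.36, 0.47, and -0.03 in Phf21bΔ4/Δ4 2, 3, and 6 and -0.08, -0.51, and -0.12 in Phf21b+/+ 5, 7, and 8, on the log2 scale. Without Phf21bΔ4/Δ4 6, the limma fit called 17 members (29.3%), of which 13 were higher and 4 lower, against 19.5% of all genes (10.3% higher and 9.29% lower). The higher ones included *Bsn*, *Cplx1*, *Pclo*, *Rims4*, *Snap91*, *Stx1a*, *Sv2a*, *Sv2b*, *Syn1*, *Syn2*, and *Vamp2*, and the lower ones were *Stx3*, *Stxbp3*, *Sv2c*, and *Vamp3*. With array weights, which give noisier libraries less weight, limma called 20 members (34.5%), 13 higher and 7 lower, against 24.5% of all genes (10.2% higher and 14.3% lower). With any other mouse left out, limma called 0 members, and 9 to 45 of all 14477 genes. It gave 6 to 19 members an unadjusted p under 0.05, but the share of all genes below that p in these fits was not counted.

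**Figure D4:**
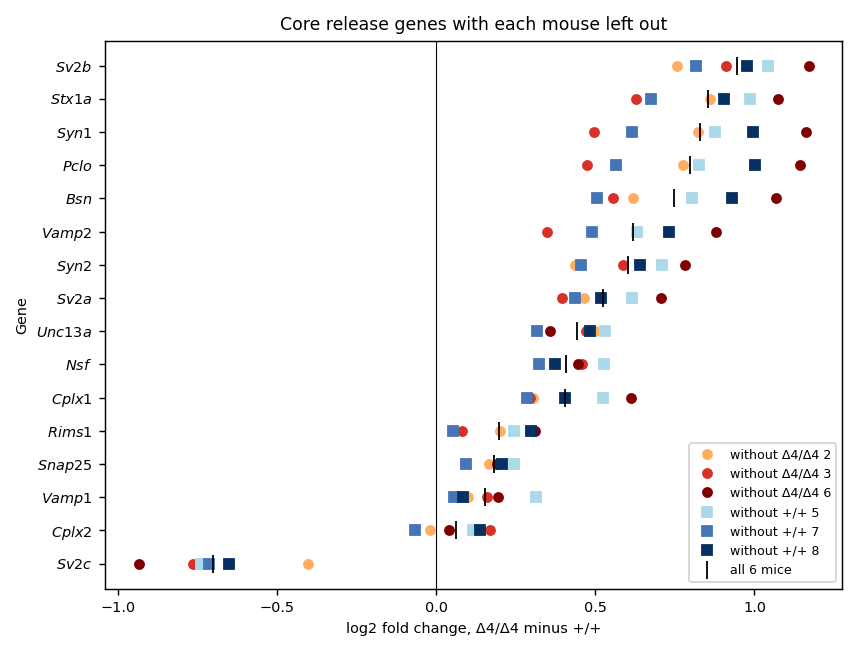
Log2 change of 16 of the 18 core genes with all 6 mice (black bars) and with each mouse left out (colored points). Without Phf21bΔ4/Δ4 6 the changes of *Sv2b*, *Stx1a*, *Syn1*, *Pclo*, and *Bsn* all exceed 1, while *Cplx2* is the 1 gene drawn that crosses 0.

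Marker genes of cells and regions also differed between these mice. The lists were chosen with earlier results of these data known, and they hold genes that the study reported as differing. Their counts of called genes are therefore no independent result. General neuronal markers had log2 changes above 0 in 8 of 8 genes, 4 of them with an unadjusted limma p under 0.05, and summed to 7560, 7072, and 6672 CPM in Phf21bΔ4/Δ4 mice and 6213, 4799, and 6184 CPM in Phf21b+/+ mice, lowest in Phf21b+/+ 7 like the core. CA1 pyramidal markers were above 0 in 8 of 8 genes with 3 called, at sums of 1019 to 1114 CPM against 421 to 469 CPM. Dentate granule markers were below 0 in 7 of 7 genes, 6 of them with an unadjusted p under 0.05, at 253, 229, and 674 CPM against 826, 704.5, and 706 CPM. Phf21bΔ4/Δ4 6 had granule cell marker levels close to those of Phf21b+/+ mice. Its CA1 marker sum of 1054 CPM lay above those of all Phf21b+/+ mice. Among the members, its *Bsn*, *Pclo*, *Syn1*, and *Vamp2* levels, picked after their values were seen, lay among those of Phf21b+/+ mice. Its levels of the 12 members that were higher without overlap, *Sv2b*, *Stx1a*, *Syn2*, *Unc13a*, and *Nsf* among them, lay above those of all Phf21b+/+ mice. A link between marker levels and members was not tested. GABAergic markers were above 0 in 8 of 8 genes with 1 called, at sums of 698 to 849 CPM against 475 to 541 CPM, and thalamic markers were below 0 in 8 of 8 with 1 called, at 129 to 228 CPM against 259.6 to 561.5 CPM. Oligodendrocyte markers summed to 5810, 5962, and 8870.2 CPM against 7019, 8931, and 9749 CPM. Of 7 astrocyte markers, 4 were above 0 and 1 was called, the water channel *Aqp4* (-0.68, limma FDR 0.0669), and 2 did not overlap between genotypes, both lower. The sums of astrocyte, microglia, and CA3 markers overlapped. The part of tissue composition in the values of the members was not tested.

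**Figure D5:**
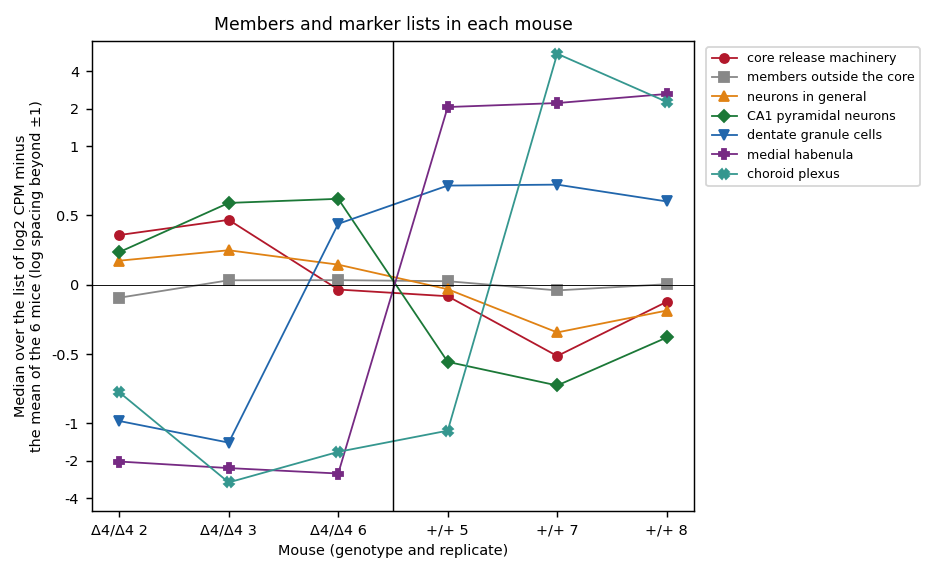
Median over each gene list of log2 CPM minus the mean of the 6 mice (vertical axis, log spacing beyond ±1) for the core, the other members, and 5 marker lists in each mouse. The core stands at 0.36 and 0.47 in Phf21bΔ4/Δ4 2 and 3 and at -0.51 in Phf21b+/+ 7, the 40 other members stay near 0, and dentate granule markers are low in Phf21bΔ4/Δ4 2 and 3 only.

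Other genes of the release pathway, listed by their known roles, were read in the same way. This list too was chosen with earlier results of these data known, so it is no independent check of the core. Of 36 such genes, 33 were listed, 24 had a log2 change above 0, and the median change was 0.31. The genotypes did not overlap for 16 that were higher (15% of all genes) and 2 that were lower (16%). At an unadjusted p under 0.05 stood 17 higher genes (background 11.6%) and 2 lower ones (background 12%). The 1 gene called by limma was *Synpr*, synaptoporin, a vesicle protein of mossy fibers and interneurons, at 159, 119, and 178 CPM against 273, 268, and 355 CPM (-0.98 ± 0.18, FDR 0.0931). *Rab3c*, a vesicle GTPase and partner of rabphilin and RIM, was at 944, 1004, and 505 CPM against 405, 309, and 333 CPM (1.17 ± 0.27, FDR 0.133), and *Syp*, synaptophysin, was at 1195, 1248, and 925 CPM against 850, 693, and 748 CPM (0.55 ± 0.15, FDR 0.142). *Rab3c*, *Syp*, and *Synpr* were picked after their values were seen. The 17 SNAREs and SM proteins of the secretory pathway outside the members had a median log2 change of 0.04, and 3 of them had an unadjusted limma p under 0.05.

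The changes of the members were weakly related to GC content and transcript length. Across 57 members with an annotated transcript, the log2 change correlated with GC content at r = 0.20 and with log length at r = 0.25, against 0.01 and 0.16 across 14277 genes. Genes are not independent replicates, and these values are a description. After the trend with length or with GC content was removed, the median of the core was 0.50 and 0.54, respectively.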

How the data were processed

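RNA-Seq was measured in hippocampal tissue of 3 Phf21bΔ4/Δ4 and 3 Phf21b+/+ mice, assigned by their labels. The authors deposited log2 CPM values of 14477 genes. Per the labels and the methods, they prepared ribosomal RNA-depleted TruSeq libraries, trimmed reads with Trimmomatic 0.39, mapped them to GRCm38 with STAR 2.7.3a, counted them over GENCODE genes with featureCounts of Subread 1.6.4, kept genes with at least 1 CPM in at least 2 samples, and scaled with edgeR to the effective library size. The strand setting and the prior count are not given in the sources used here. Low values rose in steps of 1 read: 100.0% of values were whole reads within 0.1 reads after a mean prior count of 0.1 was removed. These reads gave the CPM values, the depth (20495605 to 24881257 reads per mouse, where 3 reads equal 0.126 to 0.143 CPM), and the voom alternative. More reads give less counting error, but p-values measure the spread between mice.

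Genotypes were compared with limma 3.58.1 in R 4.3.3 (lmFit and trended eBayes), with no covariate and the Benjamini-Hochberg adjustment over all 14477 genes. Called genes had to pass both 0.1 for the FDR and 1.3 for the fold change. The study's count test was not run here; voom on the recovered reads was the alternative. Values per mouse are given for members with an FDR under 0.2, for the largest and smallest change in each role of 3 or more members, and for a core of 18 release genes; a few others were added after their values were seen. The members and all lists were chosen with earlier results of these data known. Gene positions and exon lengths come from GENCODE M21, a release other than the authors', with 98.6% of genes and 57 of 58 members matched. Leaving out each mouse, other scalings, filters, pseudocounts, array weights, and trends were tried. Counts and medians cover all 58 members, but 2 members are not reported here by name.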

Additional observations from a re-analysis of the deposited data

How the results depend on the processing

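No paired analysis was possible because the genotypes share no replicate numbers. The count of called genes was 176 and became 75 with 1 prior variance for all genes, 3549 with array weights, 101 among genes whose mean log2 CPM reached 1, 25 at an FDR under 0.05, and 2 with Phf21bΔ4/Δ4 3 and Phf21b+/+ 7 both left out, an alternative added, like the GC and length trends, after seeing the data. It ran from 9 (without Phf21b+/+ 8) to 2830 (without Phf21bΔ4/Δ4 6) with 1 mouse left out. The count of called members was 20 with array weights, which gave Phf21bΔ4/Δ4 6 a weight of 0.343 and Phf21b+/+ 8 one of 4.63, and 0 to 17 with 1 mouse left out; 16 members were called both with array weights and without Phf21bΔ4/Δ4 6. Members with no overlap numbered 6 higher and 3 lower after quantile normalization and 11 lower with both libraries left out. With 1 mouse left out they numbered 12 to 22 higher and 5 to 12 lower. With fewer mice a lack of overlap arises more readily for any gene. The shares of all genes in these settings were not counted, so these counts are no result about the members. The causes were not tested.

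Median log2 changes after quantile normalization were 0.31 for the core, 0.030 for the SNAP-25 family, 0.28 for SV2 proteins, 0.033 for plasma membrane syntaxins, and 0.019 for tomosyns and other binders. With the length trend removed they were 0.016 for Munc13, 0.024 for plasma membrane syntaxins, and 0.029 for tomosyns and other binders, and centring gave 0.22 for the SNAP-25 family. With both libraries left out they were 0.28 for the core, 0.12 for the SNAP-25 family, 0.039 for complexins, 0.28 for synapsins, 0.00637 for Munc13, -0.31 for C2-domain effectors, and -0.061 for other VAMPs. With 1 mouse left out the ranges were 0.13 to 0.20 for the SNAP-25 family, 0.083 to 0.61 for complexins, -0.00487 to 0.39 for Munc13, -0.095 to 0.087 for C2-domain effectors, and -0.43 to -0.13 for other VAMPs.

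Of 38 members named by rule, 30 kept their sign in all 18 alternative fits. Signs turned after quantile normalization for *Cplx2* (-0.20), *Snap47* (-0.012), *Rims1* (-0.012), and *Vamp4* (-0.0573), with array weights for *Stxbp5l* (-0.0090) and *Cplx3* (-0.060), and with both libraries left out for *Rims1* (-0.065), *Doc2a* (-0.31), and *Cplx3* (-1.11). With 1 mouse left out the values ran from -0.066 to 0.17 for *Cplx2*, -0.013 to 0.053 for *Vamp4*, -0.078 to 0.72 for *Doc2a*, -0.48 to 0.097 for *Syn3*, and -0.64 to 1.16 for *Cplx3*. *Unc13d* and *Vamp5*, near 1 CPM, were among the members with the fewest reads.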
